A study of Bos grunniens with 18 samples.

Results

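The neutrophil trafficking receptors are the surface proteins through which a neutrophil is held in or released from the marrow, senses an attractant and adheres to the vessel wall. They were taken by gene name as *CXCR1*, *CXCR2*, *CXCR4*, *CSF3R*, *ITGAM*, *ITGB2*, *FPR1* and *PTAFR*. Of these 8 names, 5 had a row among the 20607 genes of the deposited expression table, namely *CXCR4*, *CSF3R*, *ITGAM*, *ITGB2* and *PTAFR*. All 5 were among the 14508 genes that passed the filter on low counts. *CXCR1*, *CXCR2* and *FPR1* matched no gene name, and no level is given under those names.

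The receptors were followed in the whole blood of adult female yaks (*Bos grunniens*) aged 4 to 8 years, with 6 libraries for each of 3 stages. Group Y-A was taken in anestrus, group Y-E in estrus and group Y-P in pregnancy. The study sampled 6 cows in the second year of calving, from a herd that was artificially inseminated. According to the methods, estrus was synchronised with a progesterone pessary, PGF2α and GnRH, followed by timed insemination. The Y-E blood thus came from hormone-treated animals. As blood was tracked through the stages, the Y-P cows had received the same treatment before pregnancy. The stage of pregnancy was not given in the sources used here. No genotype or other treatment was named for any stage, and blood was taken into EDTA tubes and mixed with TRIzol LS.

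Neutrophils are made in the marrow under granulocyte colony-stimulating factor, which acts through the receptor encoded by *CSF3R*. The chemokine receptor CXCR4 retains them there, whereas CXCR1 and CXCR2 bind interleukin-8 and draw them into blood and tissue. In the vessel, the αM and β2 integrin chains encoded by *ITGAM* and *ITGB2* pair into Mac-1, which carries firm adhesion, and the receptors for platelet-activating factor (*PTAFR*) and for formyl peptides (*FPR1*) bind attractants. In whole blood none of these transcripts belongs to neutrophils alone. *CXCR4* is also used by lymphocytes, *ITGB2* by all leukocytes, and *PTAFR* and *ITGAM* by monocytes.

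The libraries held 30247267 to 48401076 counts, and the 5 receptors were covered by at least 5918 counts in every library. The share of counts from hemoglobin genes was 3.10% to 16.7% in Y-A, 0.0899% to 8.36% in Y-E and 0.0272% to 0.376% in Y-P. Y-E replicate 6 stood apart from its stage at the upper end, and the main results are given with and without it. The neutrophil markers, of which 12 of the 16 listed had a row, summed to 3080 to 6810 CPM (counts scaled to a common library size) in Y-A, 3510 to 7810 in Y-E and 1640 to 4530 in Y-P, and among them *MMP8* had a count of 0 in some library of every stage. In bulk blood, fewer neutrophils and less RNA per neutrophil cannot be told apart.

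The 5 receptors lie on 4 chromosomes in the coordinates of the deposited table, which names no genome build. The study's methods give the reference as *Bos grunniens* v101. *CXCR4* (ENSBGRG00000001345) spans chromosome 2 from 82860277 to 82866263 on the minus strand. *PTAFR* (ENSBGRG00000013703) lies on the same chromosome from 12515343 to 12516954, also on the minus strand. *CSF3R* (ENSBGRG00000007254) spans chromosome 3 from 119489574 to 119510648 on the plus strand, *ITGAM* (ENSBGRG00000022052) chromosome 26 from 16986335 to 17029509 (minus strand), and *ITGB2* (ENSBGRG00000000208) chromosome 1 from 157991075 to 158009641 (minus strand). No other gene of the table overlapped them.

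*CSF3R* was the most abundant of the receptors per transcript length in each stage. FPKM values, fragments scaled by transcript length and by the mapped reads of the library, were used wherever levels of different genes were compared. In Y-A the mean level was 534 ± 62.1 FPKM for *CSF3R* (SD, n = 6), 244 ± 37.0 for *ITGB2*, 226 ± 56.2 for *PTAFR*, 156 ± 26.0 for *CXCR4* and 74.9 ± 15.8 for *ITGAM*. By mean FPKM *CSF3R* ranked 104 of 20607 genes in Y-A, 57 in Y-E and 148 for the Y-P libraries, whereas *ITGAM* ranked 991, 1079 and 998. *ITGAM* was the lowest of the 5 in all 18 libraries.

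The order of the middle receptors depended on the stage. In Y-E the order of the means was that of Y-A, at 806 ± 172 FPKM for *CSF3R*, 305 ± 35.6 for *ITGB2*, 251 ± 47.7 for *PTAFR*, 161 ± 29.4 for *CXCR4* and 74.7 ± 7.43 for *ITGAM*. In Y-P *CXCR4* (208 ± 57.0) stood above *PTAFR* (185 ± 29.9), behind *CSF3R* (438 ± 72.2) and *ITGB2* (333 ± 36.2) and above *ITGAM* (80.5 ± 21.9). *PTAFR* exceeded *CXCR4* in 6 of 6 Y-A and 6 of 6 Y-E libraries but in 2 of 6 Y-P libraries. As groups of libraries, *ITGB2* and *PTAFR* overlapped in Y-A and Y-E, *PTAFR* and *CXCR4* overlapped in each stage, and *CSF3R* and *ITGB2* as well as *ITGB2* and *CXCR4* overlapped in Y-P, so these neighbours were not separated by more than their spread. *CSF3R* lay above *ITGB2* in 17 of 18 libraries, and *CXCR4* lay above *ITGAM* in 18 of 18.

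**Figure D1:**
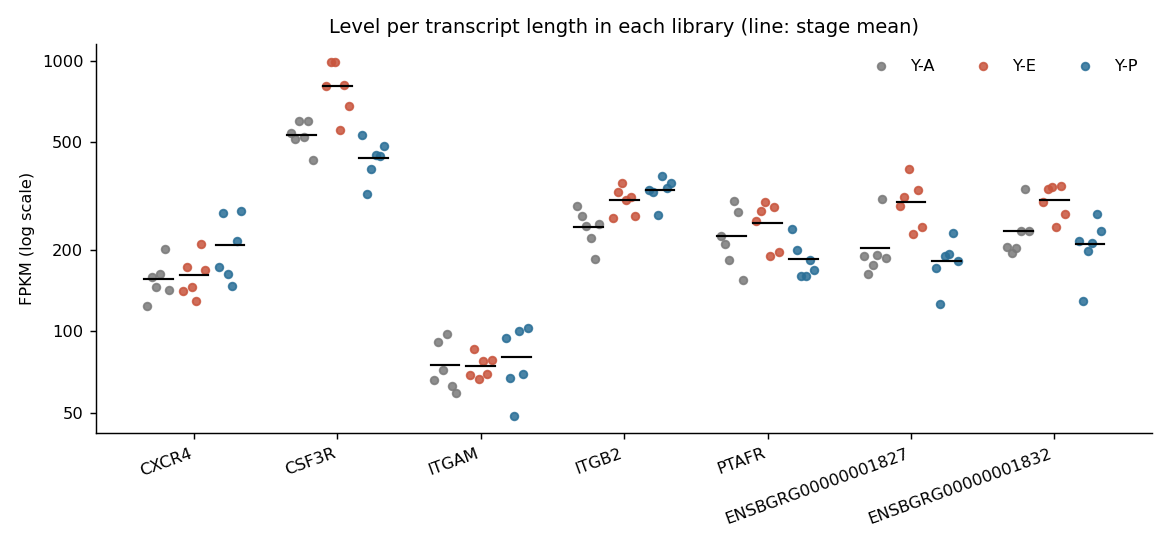
FPKM on a log axis for the 5 receptors and the 2 unnamed genes annotated to interleukin-8 binding, with a point for each library coloured by stage and a line at the stage mean. *CSF3R* is highest and *ITGAM* lowest at each stage, and the *CXCR4* mean passes the *PTAFR* mean only in Y-P (208 against 185 FPKM).

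The comparisons ask which receptor transcripts differed between the stages, a question on the blood of cows before, during and after estrus. For a single gene, levels across stages are CPM scaled with TMM factors. A gene passed where the Benjamini-Hochberg adjusted p of edgeR's two-sided quasi-likelihood test over all 14508 genes was under 0.05. Of the 5 receptors, 0 passed in Y-E vs Y-A, 0 in Y-P vs Y-A and 2 in Y-P vs Y-E. Over all genes tested, 0.0207% passed in Y-E vs Y-A, 5.83% in Y-P vs Y-A and 14.4% in Y-P vs Y-E. Leaving out Y-E replicate 6 moved the number of genes that passed in Y-E vs Y-A from 3 to 23, in Y-P vs Y-A from 846 to 888 and in Y-P vs Y-E from 2096 to 2007. Over all libraries left out in turn the number ran from 386 (without Y-P replicate 2) to 1077 in Y-P vs Y-A, and from 1372 (without Y-E replicate 5) to 2305 in Y-P vs Y-E. The same 6 cows were sampled and the comparisons share libraries, so neither the libraries nor the comparisons are independent, and the fit treats them as if they were.

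**Figure D2:**
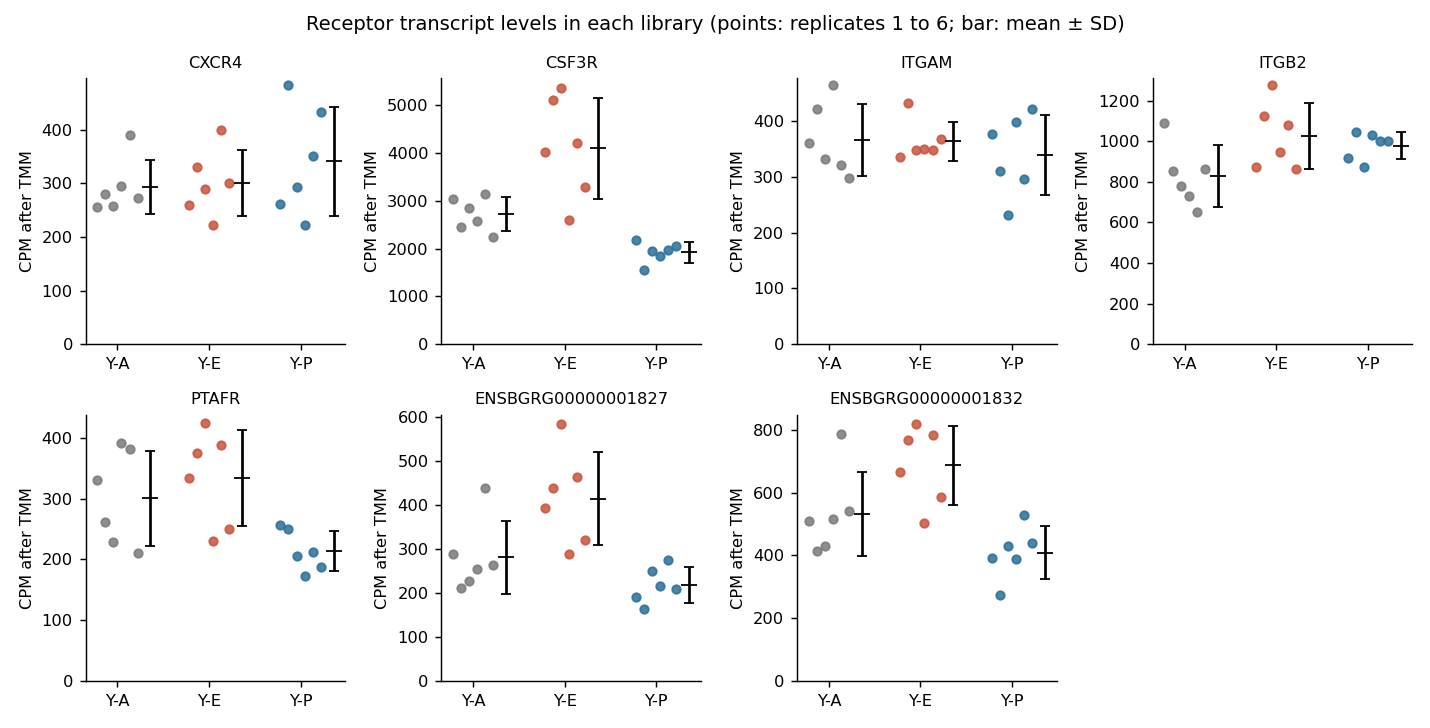
CPM after TMM in each library for the 5 receptors and the 2 unnamed genes annotated to interleukin-8 binding, with points for replicates 1 to 6 from left to right in each stage and bars for the mean ± SD. The 6 Y-P libraries of *CSF3R* lie between 1545 and 2186 CPM, under every Y-A and Y-E library.

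*CSF3R*, the receptor for granulocyte colony-stimulating factor, was highest in estrus and lowest in pregnancy. Its level ranged from 2237 to 3151 CPM in Y-A, with a median of 2711. The Y-E range was 2594 to 5374 (median 4119) and the Y-P range 1545 to 2186 (median 1958). The Y-P libraries overlapped with neither other stage, and 5 of the 6 Y-E libraries lay above every Y-A library. How many of all genes tested separated in this way is not given, here or for the genes below. The mean was 2720 ± 355 CPM for Y-A, 4104 ± 1057 for Y-E and 1925 ± 218 for Y-P (SD, n = 6 each).

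In Y-P vs Y-E, *CSF3R* fell to 0.469-fold, with a log2 fold change of −1.09 ± 0.16 (SE) and an adjusted p of 0.000426 by edgeR. All Y-P libraries lay below all Y-E libraries. *CSF3R* ranked 39 of the 14508 genes by p in that comparison. Without Y-E replicate 6 the log2 fold change was −1.15 with an edgeR adjusted p of 0.00032. *CSF3R* was the only receptor to pass when a log2 fold change of at least 1 in size was also required, where 2.67% of all genes passed. That threshold was missed when Y-E replicate 3, the library with the highest *CSF3R* level, was left out (log2 fold change −0.9996), and also with library size alone (−0.93) and in both limma fits on FPKM (−0.87 and −0.87).

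In Y-P vs Y-A the log2 fold change of *CSF3R* was −0.50 ± 0.16 with an edgeR adjusted p of 0.0619. All Y-P libraries lay below all Y-A libraries, so the same-numbered pairs could only go that way and add nothing. The call depended on the fit. The adjusted p was 0.0228 with DESeq2, 0.034 by edgeR when only the Y-A and Y-P libraries were fitted, and 0.035 by edgeR without Y-E replicate 4, a library of the stage not compared. In Y-E vs Y-A the log2 fold change was 0.59 ± 0.16 with an edgeR adjusted p of 0.332 (unadjusted 0.00115). The level was higher in 6 of 6 same-numbered pairs. As 5 of the Y-E libraries lay above every Y-A library, their pairs could only go that way. In the remaining pair Y-E replicate 4 stood at 2594 CPM and Y-A replicate 4 at 2571 CPM. DESeq2 gave an adjusted p of 0.0219 for that comparison, and without Y-E replicate 6 the edgeR adjusted p was 0.105.

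*PTAFR*, the receptor for the lipid attractant platelet-activating factor, was lower in pregnancy than in estrus. Its level ranged from 210 to 392 CPM in Y-A (median 296), 231 to 425 in Y-E (median 354) and 173 to 256 in Y-P (median 209). The ranges of all stages overlapped, and 4 of the 6 Y-P libraries lay below every Y-E library. Y-E replicates 4 and 6 were the lowest of their stage, and the other Y-E libraries lay above every Y-P library.

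In Y-P vs Y-E, *PTAFR* fell to 0.641-fold (log2 fold change −0.64 ± 0.18, edgeR adjusted p = 0.0221) and was lower in 6 of 6 same-numbered pairs. Each of these pairs held a level outside the range of the other stage, so the pairs could only go that way and add nothing. The call was lost without Y-E replicate 2, 3 or 5 or Y-P replicate 4, with edgeR adjusted p-values of 0.0519, 0.0596, 0.0544 and 0.0512. It was also lost when counts were scaled by library size alone, with a log2 fold change of −0.49 and an adjusted p of 0.0579. Without Y-E replicate 6 the log2 fold change was −0.71 with an edgeR adjusted p of 0.0151. In Y-P vs Y-A the log2 fold change was −0.49 ± 0.18 (edgeR adjusted p = 0.106). The level was lower in 6 of 6 same-numbered pairs, which for the same reason could only go that way. In Y-E vs Y-A the log2 fold change was 0.15 ± 0.18 (edgeR adjusted p = 0.999).

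*CXCR4*, the receptor for CXCL12, did not pass in any comparison. Its level ranged from 257 to 391 CPM in Y-A (median 277), 222 to 400 in Y-E (median 295) and 223 to 483 in Y-P (median 322). The 3 stages overlapped, and the spread was widest in Y-P, where the SD was 101.2 CPM against 50.5 in Y-A and 60.9 in Y-E. The log2 fold change was 0.04 ± 0.18 in Y-E vs Y-A, 0.22 ± 0.18 in Y-P vs Y-A and 0.18 ± 0.18 in Y-P vs Y-E, with edgeR adjusted p-values of 0.999, 0.498 and 0.546.

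The 2 chains of Mac-1 also did not pass. *ITGAM*, the αM chain that is particular to this integrin, ranged from 298 to 465 CPM in Y-A (median 346), 336 to 432 in Y-E (median 349) and 231 to 423 in Y-P (median 344). The medians lay within the spread of each stage, and the log2 fold changes were −0.01 ± 0.14 in Y-E vs Y-A, −0.11 ± 0.14 in Y-P vs Y-A and −0.10 ± 0.14 in Y-P vs Y-E (edgeR adjusted p = 0.999, 0.697 and 0.693). The sign turned under library size alone in the comparisons with Y-P and under limma on FPKM in all 3 comparisons, so no direction is given for *ITGAM*.

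*ITGB2*, the β2 chain that *ITGAM* shares with the other leukocyte integrins, ranged from 650 to 1091 CPM in Y-A (median 817), 862 to 1278 in Y-E (median 1013) and 874 to 1044 in Y-P (median 1001). Y-P lay inside the range of Y-A, and 2 of the 6 Y-E libraries lay above every Y-A library. The log2 fold change was 0.31 ± 0.13 in Y-E vs Y-A (edgeR adjusted p = 0.626) and 0.24 ± 0.13 in Y-P vs Y-A (edgeR adjusted p = 0.262). Scaling by library size alone moved the second of these to 0.41 with an edgeR adjusted p of 0.0376, and that scaling also moved the median log2 fold change of all genes in this comparison from 0.03 to 0.19. In Y-P vs Y-E the log2 fold change was −0.07 ± 0.12 (edgeR adjusted p = 0.757) and turned positive with library size alone (0.0795).

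**Figure D3:**
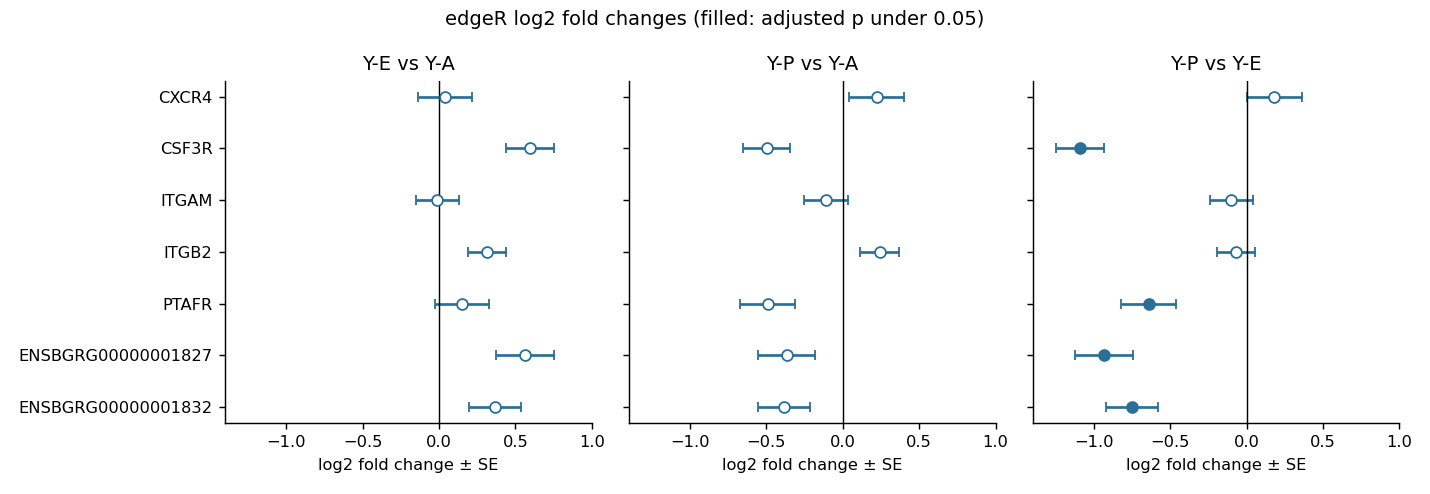
Log2 fold change ± SE from edgeR on the horizontal axis for each receptor and the 2 unnamed genes, with a panel for each comparison and filled points where the adjusted p was under 0.05. Filled points occur only in Y-P vs Y-E, at −1.09 for *CSF3R*, −0.64 for *PTAFR* and −0.93 and −0.75 for the unnamed genes.

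The interleukin-8 receptors have no named row, but the annotation of the deposited table puts 3 genes under interleukin-8 binding, and 2 of them have no symbol. These 2, ENSBGRG00000001827 and ENSBGRG00000001832, were added after the data were seen, are no members of the named set and are given by identifier only. They lie on chromosome 2, from 33490958 to 33494295 on the plus strand and from 33518656 to 33529270 on the minus strand, between *ARPC2* and *RUFY4*, and are also annotated to C-X-C chemokine receptor activity.

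ENSBGRG00000001827 ranged from 210 to 440 CPM in Y-A, from 289 to 584 in Y-E and from 163 to 276 in Y-P, so that the Y-P libraries all lay below the Y-E libraries. Its log2 fold change in Y-P vs Y-E was −0.93 ± 0.19 (edgeR adjusted p = 0.00357). ENSBGRG00000001832 ranged from 414 to 786 CPM in Y-A, from 502 to 820 in Y-E and from 275 to 530 in Y-P, and 5 of the 6 Y-P libraries lay below every Y-E library. Its log2 fold change in Y-P vs Y-E was −0.75 ± 0.17 (edgeR adjusted p = 0.00708). Neither gene passed in the other comparisons, with values of 0.56 and 0.37 in Y-E vs Y-A (edgeR adjusted p = 0.518 and 0.778) and −0.37 and −0.38 in Y-P vs Y-A (edgeR adjusted p = 0.252 and 0.187).

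The levels of the receptors relative to each other were taken as the ratio of their FPKM within a library, a quantity that does not depend on library size. For the chains of Mac-1 the ratio *ITGAM* to *ITGB2* had a median of 0.316 in Y-A (0.227 to 0.439), 0.259 in Y-E (0.188 to 0.295) and 0.234 in Y-P (0.182 to 0.291). The 3 stages overlapped. The mean log2 ratio differed by −0.31 in Y-E vs Y-A, −0.38 in Y-P vs Y-A and −0.06 in Y-P vs Y-E, with p-values of 0.104, 0.0736 and 0.675 by a two-sided exact permutation test and adjusted values of 0.156, 0.156 and 0.675 over these 3. The smallest p that this design allows is 0.00216.

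A further 4 ratios were chosen after the levels were seen. The permutation test was run on them too, but because of that choice they are given as a description without p-values. The ratio *CSF3R* to *ITGB2* ranged from 1.72 to 3.23 in Y-A, from 1.82 to 3.07 in Y-E and from 0.985 to 1.59 in Y-P, where it lay below every library of the other stages. The ratio *PTAFR* to *ITGB2* ranged from 0.621 to 1.5, from 0.620 to 0.973 and from 0.429 to 0.712 in the same order, and the ranges overlapped. The ratio *CSF3R* to *CXCR4* ranged from 2.97 to 4.37 in Y-A, from 3.88 to 6.82 in Y-E and from 1.18 to 3.07 in Y-P, with no overlap between Y-P and Y-E. The ratio *CSF3R* to *PTAFR* ranged from 1.71 to 3.26 in Y-A, 2.83 to 3.56 in Y-E and 1.61 to 2.86 in Y-P, with medians of 2.43, 3.23 and 2.45, and the ranges overlapped.

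**Figure D4:**
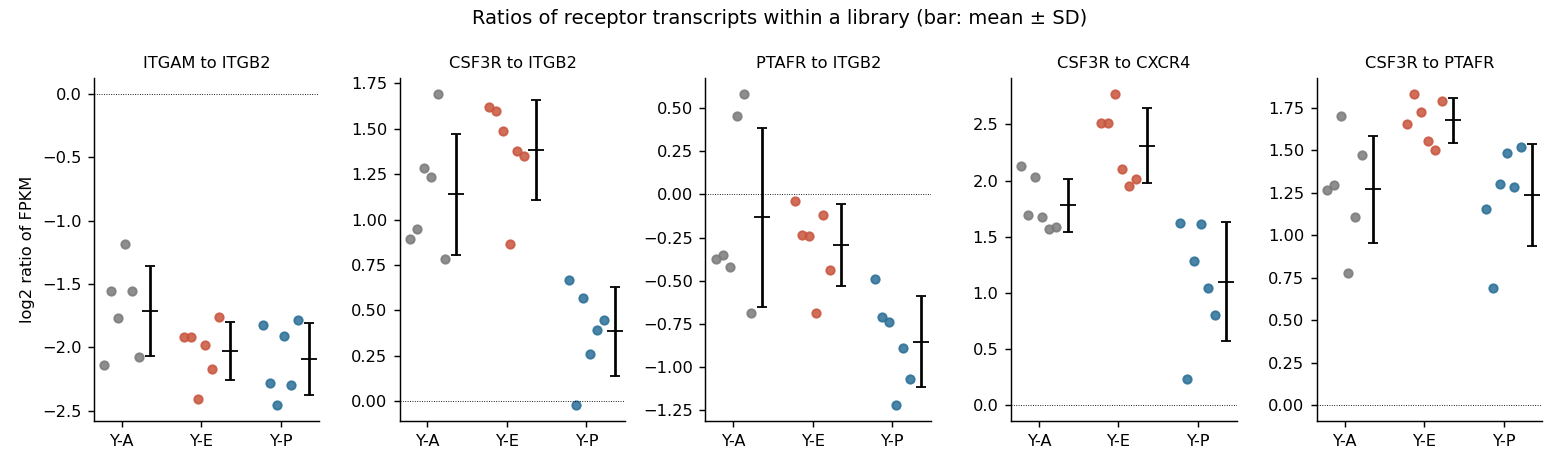
Log2 ratio of the FPKM of 2 receptors within each library by stage, with points for replicates 1 to 6 and bars for the mean ± SD; each panel has its own vertical scale. The *CSF3R* to *ITGB2* ratio in Y-P (0.985 to 1.59 on the linear scale) lies under that of both other stages, and the *ITGAM* to *ITGB2* ratios overlap.

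Single libraries recurred at the ends of the ranges. Among the 5 receptors and the 2 unnamed genes, Y-E replicate 4 had the lowest level of its stage for 5 of the 7, and Y-E replicate 3 the highest for 5 of the 7. Y-A replicate 5 was the highest of its stage for 4 of the 7, among them *CSF3R* and *CXCR4*, and the lowest for *ITGB2*. The summed neutrophil markers were also highest in Y-A replicate 5 (6810 CPM) and in Y-E replicate 3 (7810 CPM), whereas Y-E replicate 4 stood at 5553 CPM and the lowest of that stage was Y-E replicate 6 at 3510 CPM.

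The genes most like each receptor by the Pearson correlation of log2 CPM over the 18 libraries are given as a description. The libraries share cows, stages and blood composition. *CSF3R* was most like *FGR*, a SRC family kinase of myeloid cells (r = 0.968, and 0.925 after the stage means were removed), and then *PPP1R10* (r = 0.956). *PTAFR* was most like *RNF144B* (r = 0.928) and *TM9SF4* (r = 0.908), and *ITGB2* was most like *TSC22D4* (r = 0.941) and ENSBGRG00000015698 (r = 0.908). *ITGAM* was most like ENSBGRG00000025464 (r = 0.861) and ENSBGRG00000025483 (r = 0.854). *CXCR4* was most like the transcription factor gene *KLF6* (r = 0.773, and 0.86 after the stage means were removed) and the natural killer receptor gene *NCR3* (r = 0.772).

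Transcripts of 4 of the 9 listed chemokine and cytokine ligand genes had a row, and their levels were low. *CXCL8*, which encodes interleukin-8, ranged from 1.54 to 9.17 CPM in Y-A, from 1.33 to 7.39 in Y-E and from 1.70 to 23.7 in Y-P. *CXCL6*, another CXCR2 ligand, stayed between 0.183 and 2.49 CPM over all libraries. *CXCL12*, the ligand of CXCR4, ranged from a count of 0 in 1 library of each stage to 19.1 CPM in Y-A. The *CXCL8* medians were 4.81, 2.82 and 2.58 CPM in this order of stages, and its highest value came from Y-P replicate 6. The log2 fold changes in Y-P vs Y-E were 1.04 ± 0.65 for *CXCL8* (0.29 without Y-P replicate 6), −0.85 ± 0.50 for *CXCL6* and −1.20 ± 1.31 for *CXCL12* (edgeR adjusted p = 0.309, 0.283 and 0.596). *CSF3*, which encodes the ligand of CSF3R, had 0 to 9 counts per library and was below the filter, and *CXCL1*, *CXCL2*, *CXCL3*, *CXCL5* and *PPBP* matched no row.

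Around the receptors, 71 genes of leukocyte trafficking were listed by role, of which 50 were tested. In Y-P vs Y-E 18 of them were lower, 1 was higher and 31 did not pass, and their median log2 fold change was −0.39 beside 0.04 over all genes tested, of which 8.68% passed as lower and 5.77% as higher. In Y-P vs Y-A 3 were lower and 0 higher, where 3.61% of all genes passed as lower, and in Y-E vs Y-A 0 passed. The list was chosen with earlier results of these data known, so these counts are a description and no test of the list. *FGR*, a kinase that acts next to β2 integrins, went from 1220 ± 277 to 604 ± 58.4 CPM (log2 fold change −1.01, edgeR adjusted p = 0.000352).

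Of the genes that signal from chemoattractant receptors, 4 of 12 tested were lower in Y-P vs Y-E, where 8.68% of all genes passed as lower. They were *PREX1*, a RAC exchange factor (log2 fold change −0.82), *PIK3CG*, the PI3Kγ catalytic subunit (−0.73), *GNAI2*, a Gαi subunit (−0.47), and *VAV1* (−0.37), with edgeR adjusted p-values of 0.000867, 0.00199, 0.0141 and 0.0149. Of the 5 other attractant receptors tested 2 were lower, among them the complement receptor *C5AR1*, which went from 898 ± 184 to 587 ± 95.1 CPM (log2 fold change −0.61, edgeR adjusted p = 0.00785). *ITGAL*, the αL chain that also pairs with the β2 chain, had a log2 fold change of −0.52 (edgeR adjusted p = 0.0139) and was 1 of 3 other integrins that passed. *TLN1*, which encodes the integrin activator talin (−0.63), and *ICAM3*, an adhesion ligand of leukocytes (−0.85), were lower with edgeR adjusted p-values of 0.00267 and 0.00335.

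Downstream of CSF3R, 3 of 8 genes were lower and 1 was higher in Y-P vs Y-E. Of all genes, 8.68% passed as lower and 5.77% as higher there. *STAT3*, the main transcription factor of this receptor, had a log2 fold change of −0.60 and the kinase gene *TYK2* of −0.51 (edgeR adjusted p = 0.0124 and 0.009). The gene that rose, *GFI1*, a repressor needed for granulocyte formation, was named after its value was seen, as the only 1 in that direction, and went from 10.2 ± 2.80 to 17.5 ± 5.22 CPM (log2 fold change 0.79, edgeR adjusted p = 0.0291). In Y-P vs Y-A the genes that passed were *FGR* (−0.63), *GRK3*, a kinase that desensitises receptors (−0.66), and *CMKLR1*, the chemerin receptor (−0.81), with edgeR adjusted p-values of 0.0166, 0.029 and 0.0374. On FPKM with limma the calls for *STAT3*, *TYK2*, *ITGAL*, *GNAI2*, *VAV1*, *GRK3* and *CMKLR1* were lost in these comparisons, and those for *GRK3* and *CMKLR1* were also lost when some single libraries were left out.

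**Figure D5:**
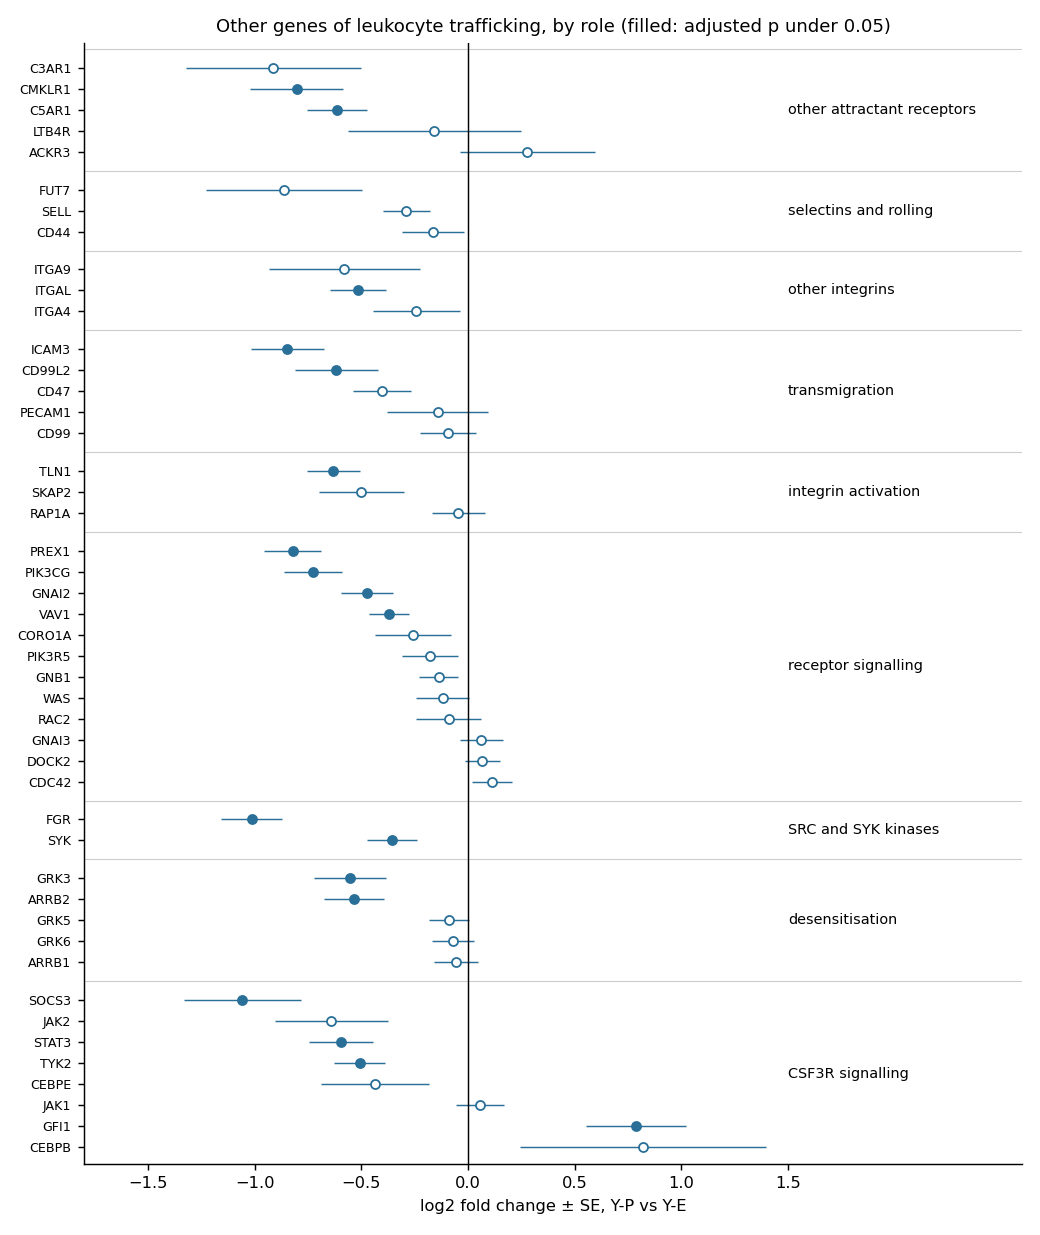
Log2 fold change ± SE in Y-P vs Y-E on the horizontal axis for tested genes of the trafficking list other than ligands, grouped by role, with filled points where the edgeR adjusted p was under 0.05. The filled points lie left of 0 except that of *GFI1* at 0.79, and that of *FGR* lies at −1.01.

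Some of the marker lists of blood cell types moved with these differences. They were chosen with earlier results of these data known, so their counts are a description and no test of the lists. In Y-P vs Y-E, where 8.68% of all genes passed as lower and 5.77% as higher, the neutrophil markers had 7 of 11 tested genes lower and 0 higher, with a median log2 fold change of −1.45, and the *S100A9* level went from 1370 ± 582 to 456 ± 259 CPM. The T cell markers had 3 of 6 tested genes higher, with a summed level of 875 to 1030 CPM in Y-E and 1040 to 1750 in Y-P, and the monocyte markers had 1 of 8 lower, with sums of 716 to 1360 and 602 to 1000 CPM. The part of blood composition in the lower levels of *CSF3R* and *PTAFR* was not tested.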

How the data were processed

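Whole-blood RNA-seq of 18 libraries was used. The authors trimmed the reads with Cutadapt 1.9 and used HISAT2 2.2.1 and StringTie 2.1.6, per the submitters' processing notes. The authors deposited FPKM per gene and library together with whole-number counts that were not normalized. The methods name the reference as *Bos grunniens* v101. How the counts were made and whether strand was used were not given in the sources used here.

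Genes were matched by name. The counts were tested with edgeR 4.0.16 (R 4.3.3) with TMM normalization, filterByExpr and a quasi-likelihood fit on stage over all 18 libraries, with p-values adjusted by Benjamini-Hochberg over the 14508 genes tested, and the script was tested on simulated data. TMM factors ran from 0.871 to 1.12. Ratios of FPKM were compared by exact permutation tests written in Python 3.11.15 with numpy 2.4.6. DESeq2 1.42.0 and limma 3.58.1 (pseudocounts 1 and 0.1), other scalings, filters and left-out libraries were alternatives.

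The genes named were the receptors, the trafficking genes that passed (the 12 with the smallest adjusted p where more passed), the ligands, the 2 genes most like each receptor, and the marker lists. Of these, 1 trafficking gene is not reported here, although the counts over the list include it. The receptors and lists were chosen with earlier results of these data known. The study sampled 6 cows and the labels number the libraries 1 to 6 in each stage, but a number is not tied to a cow in words. The deviations of same-numbered libraries from their stage means correlated at 0.11 to 0.515 between Y-A and Y-E, −0.0492 to 0.369 between Y-A and Y-P, and −0.0544 to 0.4 between Y-E and Y-P. No protein or gene sequence was used.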

Additional observations from a re-analysis of the deposited data

Results flagged for a closer look

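Among 36 groups of 6 libraries (the levels and ratios of the receptors and of the 2 unnamed genes by stage), 5 had a library far from the rest of its stage by Dixon's test, where chance gives about 1 in 20. In Y-A replicate 5 the level was 391.2 CPM for *CXCR4*, 439.8 CPM for ENSBGRG00000001827 and 785.8 CPM for ENSBGRG00000001832, in each case above the other Y-A libraries. In Y-E replicate 2 *ITGAM* stood at 431.9 CPM, above the other Y-E libraries. In Y-E replicate 4 the log2 ratio of *CSF3R* to *ITGB2* was 0.8655, below the other Y-E libraries.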

How the results depend on the processing

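The alternatives were other scalings, filters, tools and thresholds and leaving out each library in turn. Of the 5 receptors, 1 passed in Y-E vs Y-A under DESeq2 (*CSF3R*) and 0 under the other alternatives. DESeq2 passed 65 of 14508 genes in that comparison, and the main fit 3. The edgeR count of 0 there stands beside 900 of 14508 genes (6.2%) at an unadjusted p under 0.05. Without any difference, a share of about 0.05 would fall under that threshold. In Y-P vs Y-A 1 passed under library size alone, both limma fits on log2(FPKM + pseudocount) (*ITGB2*, log2 fold change 0.46 and 0.46), DESeq2 and the fit of only the stages compared (*CSF3R*), and 0 to 1 passed when a library was left out. Of 14508 genes, 1333 passed under library size alone, 2116 and 1928 under limma and 1489 under DESeq2, against 846 in the main fit. The fit of only the stages compared passed 482 of 13991. In Y-P vs Y-E 1 passed (*CSF3R*) under library size alone, both limma fits and the added fold threshold, and 1 to 2 when a library was left out. Of all genes, 2553 passed under library size alone, 3070 and 2931 under limma and 387 with the fold threshold, against 2096 in the main fit. The limma fits moved the median of all genes to 0.15 and 0.22 in Y-P vs Y-A and to 0.14 and 0.21 in Y-P vs Y-E, and library size alone moved it to 0.19 and 0.18. With the replicate number as a block in the edgeR fit, 0, 0 and 2 receptors passed in the 3 comparisons, as without it, also without Y-E replicate 6, and the genes passing in Y-P vs Y-A rose from 846 to 1282.

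Signs turned for *ITGAM* in Y-E vs Y-A with limma (0.016 and 0.016), with the replicate block (0.00087) and with the block without Y-E replicate 6 (0.0079), in Y-P vs Y-A with library size alone (0.055) and limma (0.081 and 0.082), and in Y-P vs Y-E with the same (0.056, 0.065 and 0.065). They turned for *ITGB2* in Y-P vs Y-E with library size alone (0.0795) and limma (0.13 and 0.13), and for *CXCL6* in Y-E vs Y-A with the block without Y-E replicate 6 (−0.12). When a library was left out the log2 fold change ran from −0.078 to 0.070 for *ITGAM* and −0.060 to 0.14 for *CXCR4* in Y-E vs Y-A, −0.13 to 0.0011 for *ITGB2* in Y-P vs Y-E, −0.13 to 0.43 for *CXCL6* and −1.41 to 0.96 for *CXCL12* in Y-E vs Y-A, and −0.18 to 0.81 for *CXCL8* in Y-P vs Y-A. The difference in log2 ratio ran from −0.14 to 0.0090 for *ITGAM* to *ITGB2* in Y-P vs Y-E and from −0.13 to 0.078 for *CSF3R* to *PTAFR* in Y-P vs Y-A. The causes of these changes were not tested. Of the 9 planned ratio comparisons, the 6 with *CXCR1* or *CXCR2* were not run, as these names had no row. The SEs cover the spread between libraries. Neither blood cell counts nor the day of sampling were used here.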

Other observations

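Other markers of the listed blood cells were not part of the receptor comparisons, and their lists were also chosen with earlier results of these data known. The reticulocyte markers, of which 5 of 8 were tested, summed to 604 to 11800 CPM in Y-A, 161 to 5090 in Y-E and 92.6 to 179 in Y-P. By edgeR 5 of 5 were lower in Y-P vs Y-A, where 3.61% of all genes passed as lower. Among them *SLC4A1* had a count of 0 in some library of Y-E and of Y-P, and *HBM* in some library of Y-P. The platelet markers summed to 280 to 367 CPM in Y-A, 239 to 390 in Y-E and 153 to 208 in Y-P. Of the 4 tested, 2 were lower in Y-P vs Y-E, where 8.68% of all genes passed as lower. Of these 2, *GP1BA* had mean levels of only 0.976 CPM in Y-E and 0.0907 in Y-P. It had a count of 0 in some library of Y-P. The B cell sums overlapped between the stages, at 664 to 2050, 567 to 1730 and 755 to 2210 CPM, and 0 of 7 markers passed by edgeR in any comparison. The eosinophil sums also overlapped, at 345 to 1260, 648 to 977 and 418 to 1130 CPM, with 0 of 3 passing. Of the natural killer cell markers, 1 of 4 was higher in Y-P vs Y-E, where 5.77% of all genes passed as higher. Their sums were 122 to 300 CPM in Y-E and 189 to 299 in Y-P. The neutrophil precursor markers *MPO* and *ELANE* summed to 5.23 to 18.5, 9.86 to 27.1 and 10.7 to 20.1 CPM, and 0 of 2 passed in any comparison.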
